A study of Mus musculus with 2 samples.

Results

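The 10 genes described here encode surface and secreted proteins by which mesothelium is commonly recognised: Upk3b, Upk1b, Msln, Muc16, Lrrn4, Gpm6a, Alcam, Podxl, Efemp1 and Nkain4. They were chosen by name, as probe sets whose annotation on the array platform gives exactly 1 gene symbol and that symbol is in this list. All 10 genes were represented, by 20 probe sets of the 34945 that name 1 gene and of 45101 on the array. RNA was measured on Affymetrix Mouse Genome 430 2.0 arrays in livers of wild type C57Bl6 mouse embryos at age E12.5. That age is given by the titles and source names, while a description attached to both samples speaks of embryos before the zygotic genome is active, which conflicts with it. The first group is mesothelial cells, the Pdpn+ fraction that FACS gave from trypsin-digested liver, and the second is liver cells of the same stage, genotype and strain. For the liver cells the labels name no sort and do not say whether Pdpn+ cells were removed. Each group had 1 array, hybridised with cDNA amplified from 20 ng of total RNA, so nothing was tested, and the values describe these 2 arrays alone. The labels do not say how many embryos were pooled.

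Mesothelium is the flat epithelium that lines the body cavities and wraps the organs in them, and in the embryonic liver it lies directly over the growing parenchyma. Its cells keep epithelial contacts while carrying many genes of mesenchyme, and their free surface bears a coat of mucins and other heavily glycosylated proteins that keeps facing organs from sticking together. The genes below fall by role into uroplakins, the mesothelin and mucin pair, membrane proteins best known from neurons, adhesion and anti-adhesion proteins of the cell surface, and a secreted matrix protein.

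Values are the deposited intensities, which are linear, and differences are log2 intensity in mesothelial cells minus log2 intensity in liver cells. The median intensity of all probe sets was 65.8 on the mesothelial array and 42.3 on the liver array. The brightest of 27 control probe sets for bacterial transcripts read 16.2 on the mesothelial array and 10.5 on the liver array, and a value at or below that of its array is called control level here. A probe set was above the floor where at least 1 of its values reached the median of its array. Over the 34945 probe sets the median difference was 0.58, so the typical probe set read 1.49-fold brighter on the mesothelial array. Pdpn, whose product was the target of the sort, read 38.8-fold brighter in mesothelial cells, which only checks the labels.

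All 20 marker probe sets read higher in mesothelial cells than in liver cells, although 1 of them, for Podxl, lay close to control level on both arrays. As deposited, 19 of the 20 were brighter by 2-fold or more in mesothelial cells, against 32.2% of all 34945 probe sets, and 17 were brighter by 4-fold or more, against 9.38%. Over all 20 the median difference was 3.80, a 13.9-fold ratio, or 3.22 relative to all probe sets, and it was 3.78 with liver values at control level replaced by that level. Taking for each gene its brightest probe set, all 10 were brighter by 2-fold or more in mesothelial cells, against 36.2% of all 18193 genes, and their median was 3.98, against 0.66 over all genes. After each array was centred on its own median, 19 of the 20 marker probe sets were brighter by 2-fold or more, against 14.8% of all. The floor was passed by 17 of the 20 probe sets and by 9 of the 10 genes, and 7 of those probe sets and 4 of those genes passed it on the mesothelial array alone. Probe sets admitted that way have to differ, so nothing is read from the finding that all 17 were brighter by 2-fold or more, beside 41.2% of all probe sets above the floor. For the other gene lists below, counts are of genes above the floor and have the same limit. A gene that passed on the mesothelial array alone has to read higher there. One that passed on the liver array alone cannot reach 2-fold in mesothelial cells. Counts of these lists are set against 45.4% of the 12018 genes above the floor, the share brighter by 2-fold or more in mesothelial cells. For liver cells the share is 3.83%. After median centring these shares were 23.9% and 9.25%. Where a count below is set against one of these shares of all genes, all genes above the floor are meant. Such ratios come from mixed cells, in which more cells of a type and more RNA per cell cannot be told apart.

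**Figure D1:**
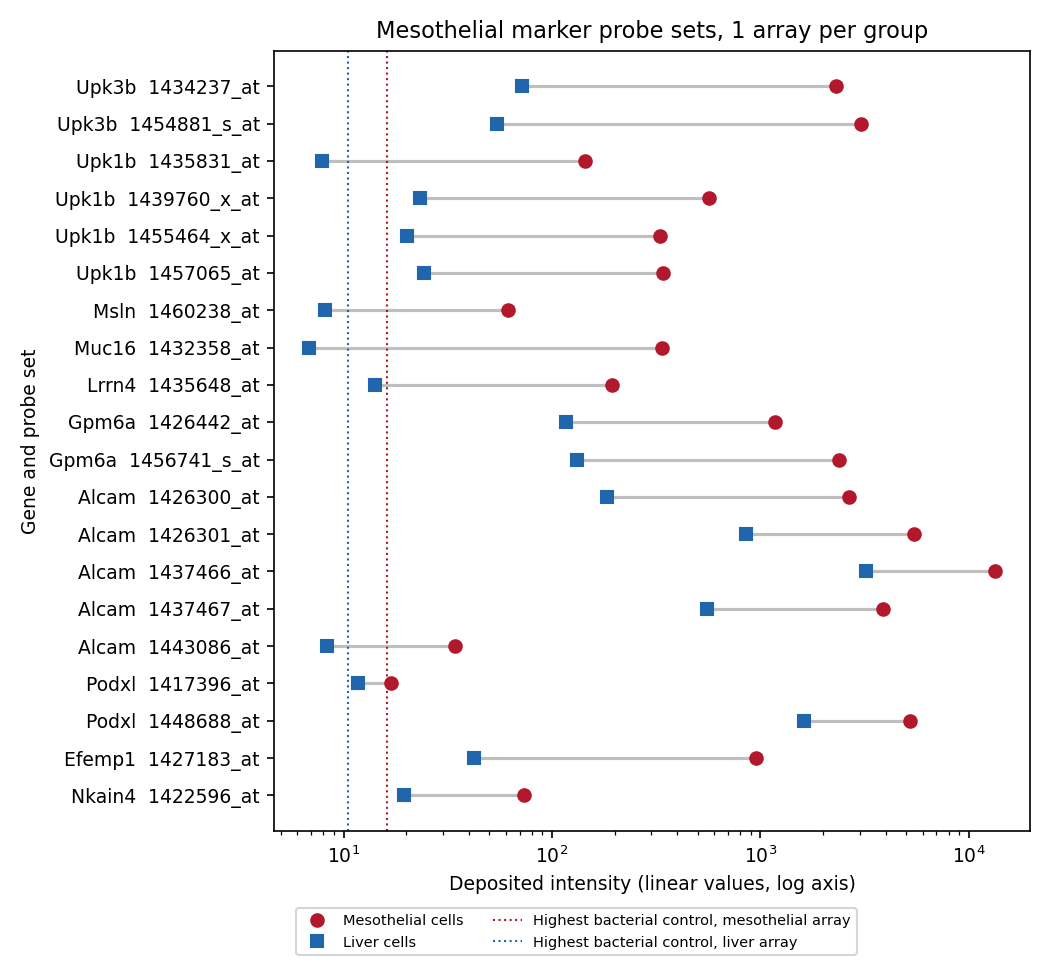
Deposited intensity on a log axis for each of the 20 marker probe sets, with circles for mesothelial cells, squares for liver cells and dotted lines at the highest bacterial control of each array. Each circle lies to the right of its square, and 4 squares, for Upk1b, Msln, Muc16 and Alcam, lie at or below the liver control level of 10.5.

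**Figure D2:**
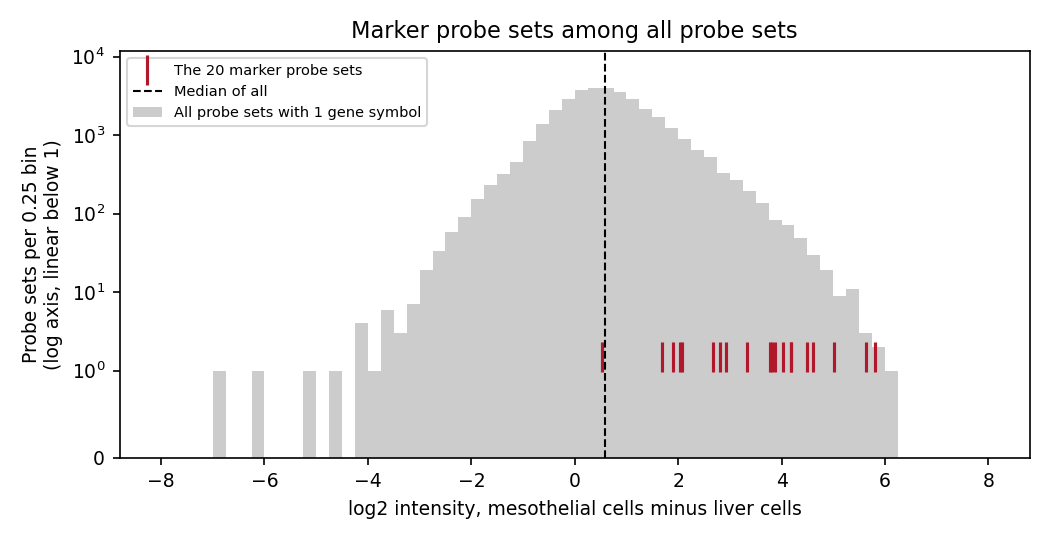
Number of probe sets per bin of 0.25 in the difference, log2 intensity in mesothelial cells minus liver cells, for all 34945 probe sets (grey) with the 20 marker probe sets as red ticks and the median of 0.58 dashed. Of the ticks, 19 lie above a difference of 1, and the exception is a Podxl probe set at 0.52.

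Uroplakins are membrane proteins that pave the surface of the bladder lining, and Upk3b and Upk1b are the pair also found in mesothelium. Upk3b (gene ID 100647) read 3053.4 on 1 probe set in mesothelial cells, against 54.4 in liver cells, a 56.1-fold ratio. That probe set is of a design that can match more than 1 transcript. The other Upk3b probe set read 2309.3 in mesothelial cells, against 71.9 in liver cells, a 32.1-fold ratio. By difference these ranked 2 and 26 of the 34945 probe sets, and the SD between them was 0.57. Upk1b (gene ID 22268), a tetraspanin that pairs with uroplakin III proteins, had 4 probe sets. They read 565.2, 340.7, 330.5 and 143.9 in mesothelial cells, against 23.2, 24.2, 20.2 and 7.9 in liver cells. The first 3 gave ratios of 24.4, 14.1 and 16.4, of which 24.4 and 16.4 came from designs that can match more than 1 transcript. The last was at control level in liver cells and at least 13.7-fold higher in mesothelial cells. Their differences had an SD of 0.33, less than the SD of 0.70 pooled over 5323 genes with several probe sets above the floor, so the 4 readings of Upk1b lay close together.

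The other uroplakin genes did not share this pattern. Upk3a, the bladder partner of Upk1b, read 26.5 in mesothelial cells, against 33.8 in liver cells, and Upk2 read 34.5 in mesothelial cells, against 30.8 in liver cells. Upk1a read 11.6 in mesothelial cells, at control level, and 12.6 in liver cells. None of these 3 was above the floor, and their differences lay between -0.35 and 0.16, each from 1 probe set. The bladder basal cell genes Krt5 and Trp63 read 61.1 and 34.5 in mesothelial cells, against 27.3 and 67.8 in liver cells. The 5 urothelial genes summed to 168.2 in mesothelial cells, against 172.3 in liver cells.

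Mesothelin and the mucin Muc16, known in humans as the tumour antigen CA125, bind each other at the cell surface. Muc16 (gene ID 73732) read 335.7 in mesothelial cells, against 6.8 in liver cells, which is control level, so that it was at least 32.0-fold higher. Msln (gene ID 56047), which encodes a precursor cleaved to the membrane-anchored mesothelin, read 61.8 in mesothelial cells, against 8.1 in liver cells. The liver value was again at control level, and the ratio was at least 5.89-fold. Msln was the single member whose representative probe set lay under the floor, since 61.8 is below the median of 65.8 on that array. Other membrane mucins gave smaller ratios. Muc13 read 315.2 in mesothelial cells, against 119.6 in liver cells, with a second probe set at a difference of 0.22, and Muc1 read 24.7 in mesothelial cells, against 11.8 in liver cells, under the floor. Muc4 and Muc20 were at control level on both arrays.

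Lrrn4, Gpm6a and Nkain4 are membrane proteins known mostly from the nervous system. Gpm6a (gene ID 234267), a proteolipid family glycoprotein that promotes filopodia in neurons, read 2388.4 and 1171.5 on its 2 probe sets in mesothelial cells, against 132.4 and 116.3 in liver cells. The ratios were 18.0 and 10.1, the larger from a probe set of a design that can match more than 1 transcript, and the SD was 0.59. Lrrn4 (gene ID 320974), a leucine-rich repeat protein, read 193.9 in mesothelial cells, against 14.1 in liver cells, a 13.8-fold ratio, ranking 268. Nkain4 (gene ID 58237), which belongs to a family that interacts with the sodium pump, read 73.1 in mesothelial cells, against 19.5 in liver cells, a 3.75-fold ratio. Both values of Nkain4 were low, and its mesothelial value was only just above the floor.

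Relatives of these genes were also higher in mesothelial cells in several cases. Lrrn1 was 14.3-fold higher on its brightest probe set, 462.8 in mesothelial cells, against 32.3 in liver cells, but the other probe sets differed by -0.24 and -0.19, so its reading depended on the probe set. Lrrn3 was 2.37-fold higher, and Lrrn2 and Lrrn4cl lay under the floor. Gpm6b was 4.65-fold higher on its brightest probe set, with a median of 0.29 over 3. Nkain2 was 4.56-fold higher, and its 2 probe sets were close (SD 0.03). Nkain1 was 3.51-fold higher, with 5 probe sets between 1.02 and 3.32. Among the sodium pump beta subunits, Atp1b1 was 2.37-fold higher on its brightest probe set, with 5 probe sets between -0.46 and 2.20. Atp1b2 differed by 0.75, with a second probe set at -0.81, and Atp1b3 differed by 0.25 on 1 probe set. Genes of neurons and glia had a median difference of 0.03 over the 8 measured, against 0.66 over all genes. Of the 8 measured, none of the 5 above the floor was brighter by 2-fold or more in mesothelial cells and 1, the synaptic vesicle gene Syt1, was brighter by 2-fold or more in liver cells, against 45.4% and 3.83% of all genes. Elavl3, Elavl4 and Syt1 passed the floor on the liver array alone and could not reach 2-fold in mesothelial cells, so nothing is read from these counts. Stmn2, under the floor, read 50.7 in mesothelial cells, against 23.3 in liver cells, a 2.18-fold ratio. After median centring 3 of the 5 above the floor were brighter by 2-fold or more in liver cells, against 9.25%. Elavl4 and Syt1 were among these 3 and then had to read higher in liver cells, so nothing is read from this count either. The 8 summed to 504.5 in mesothelial cells, against 503.6 in liver cells, and Tubb3, neuronal tubulin, was at control level in mesothelial cells.

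Alcam and Podxl also gave clear signal in liver cells, and their ratios on the brightest probe set were 4.19 and 3.22. Alcam (gene ID 11658), an immunoglobulin family adhesion molecule, had 5 probe sets. The 4 above the floor read 13424.5, 5444.6, 3882.2 and 2667.4 in mesothelial cells, against 3207.2, 851.0, 557.4 and 183.2 in liver cells. The ratios were 4.19, 6.40, 6.96 and 14.6, so the size of the Alcam ratio depended on the probe set read. The fifth lay under the floor at 34.1 in mesothelial cells, against 8.3 in liver cells, at least 3.25-fold. The SD over all 5 was 0.74. Podxl (gene ID 27205), podocalyxin, is a sialomucin that keeps membranes apart and is also made by blood vessels, podocytes and blood progenitors. Its probe set above the floor read 5237.9 in mesothelial cells, against 1628.3 in liver cells, a 3.22-fold ratio. The other read 16.8 in mesothelial cells, against 11.7 in liver cells, a little over control level on each array, so it adds little, and under median centring its sign turned.

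Podocalyxin is tied to the actin cortex by scaffold proteins and ezrin. The scaffold genes Slc9a3r1 and Slc9a3r2 were 5.68-fold and 6.38-fold higher in mesothelial cells, with lowest differences of 1.78 over 3 probe sets and 1.41 over 6. Ezrin (Ezr) read 920.8 in mesothelial cells, against 321.8 in liver cells, 2.86-fold higher, but its second probe set differed by only 0.26, less than the median of all genes. Cd34, the closest relative of Podxl in vessels and blood progenitors, read 263.1 in mesothelial cells, against 226.5 in liver cells, a difference of 0.22. The adhesion molecules nearest to Alcam, Bcam and Mcam, were 5.27-fold and 4.82-fold higher, each on 1 probe set, and Cd6, the lymphocyte receptor that binds Alcam, lay under the floor. Other cell types that carry Podxl or Alcam were measured beside them. The 10 endothelial genes summed to 3134.5 in mesothelial cells, against 1674.4 in liver cells, and 3 were brighter by 2-fold or more in mesothelial cells, a smaller share than the 45.4% of all genes. Their median of 0.67 was close to the 0.66 of all genes. After median centring 1 was brighter by 2-fold or more in mesothelial cells, against 23.9%, and 1 in liver cells, against 9.25%. The latter, Emcn, passed the floor on the liver array alone. The 7 megakaryocyte genes summed to 22424.3 in mesothelial cells, against 6521.3 in liver cells. All 7 were brighter by 2-fold or more in mesothelial cells, against 45.4% of all genes, and 4 were so after median centring, against 23.9%. None of the 5 blood progenitor genes above the floor reached 2-fold in mesothelial or in liver cells, against 45.4% and 3.83% of all genes. The part of these cell types in the Podxl and Alcam readings was not tested.

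Efemp1, or fibulin-3, is a secreted glycoprotein of basement membranes and elastic fibres, and it has been measured in humans as a marker of mesothelial tumours. Its probe set (gene ID 216616) read 954.6 in mesothelial cells, against 42.4 in liver cells, a 22.5-fold ratio that ranked 76 of all probe sets. Other fibulins went the same way. All 4 above the floor were brighter by 2-fold or more in mesothelial cells, against 45.4% of all genes. Fbln5 was 18.1-fold, Fbln2 10.5-fold and Fbln1 and hemicentin (Hmcn1) each 10.4-fold higher. Fbln1, Fbln2 and Hmcn1 passed the floor on the mesothelial array alone, with liver values of 39.6, 25.2 and 24.5, so nothing is read from that count. Fibulin probe sets disagreed, with SDs of 2.61 for Fbln5, 2.18 for Fbln2 and 2.12 for Fbln1. The median over probe sets was 2.34 for Fbln5 and 1.85 for Fbln2. Fibulins are also made by mesenchymal cells. Of 8 stellate and mesenchymal genes, 7 were brighter by 2-fold or more in mesothelial cells, against 45.4% of all genes. Of the 8, Des, Colec11, Lhx2 and Lrat passed the floor on the mesothelial array alone. The list summed to 5647.2 in mesothelial cells, against 1130.9 in liver cells, and its part in the fibulin readings was not tested.

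**Figure D3:**
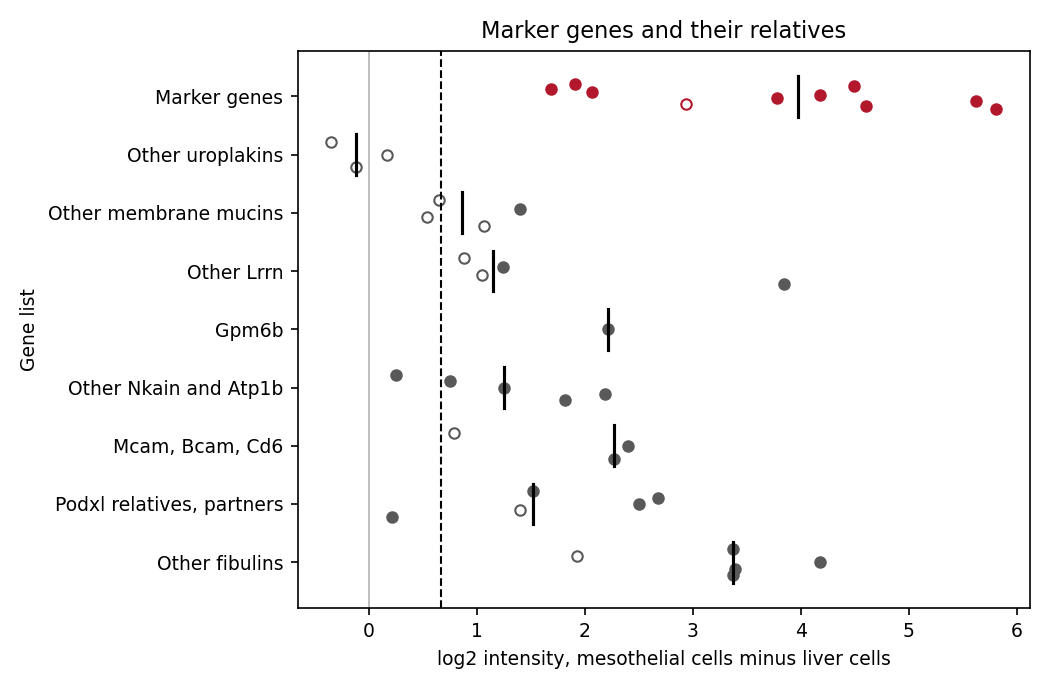
Difference for each marker gene and each related gene on its brightest probe set, as log2 intensity in mesothelial cells minus liver cells, with filled points above the floor, open points under it, short bars at each list's median and a dashed line at the median of all genes, 0.66. The 3 other uroplakins lie around 0, from -0.35 to 0.16, while the other fibulins run between 1.93 and 4.18.

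Over the 30 measured relatives and partners, 16 of the 19 above the floor were brighter by 2-fold or more in mesothelial cells, against 45.4% of all genes, and 12 after median centring, against 23.9%. Lrrn1, Bcam, Fbln1, Fbln2, Hmcn1 and Nkain2 passed the floor on the mesothelial array alone and had to read higher there, which limits these counts. With the median over probe sets of each gene the count was also 12, a setting for which the share of all genes was not computed. None of the 19 was brighter by 2-fold or more in liver cells, where only 3.83% of all genes were, and the median over the 30 was 1.40. The 10 marker genes had a median of 3.98. The limit of the floor also held for a wider mesothelial list. There Rspo1, Aldh1a2, Cd200, Tm4sf5, Tbx18, Wnt4, Cldn15, Stra6 and Sbspon passed on the mesothelial array alone and had to read higher there. Of the 28 measured genes of this list, 24 of the 27 above the floor were brighter by 2-fold or more, against 45.4% of all genes. The genes that had to read higher limit this count. The median over the 28 was 3.06. The 4 furthest to the mesothelial side were Rspo1, a secreted activator of Wnt signalling and at least 28.6-fold higher, Aldh1a2, which makes retinoic acid and was 39.4-fold higher, the transcription factor gene Bnc1 at 32.9-fold and the keratin gene Krt7 at 23.6-fold. Furthest the other way was Calb2, calretinin, which read 12.2 in mesothelial cells, against 13.2 in liver cells. Calretinin marks adult human mesothelium, and here its probe set was at control level in mesothelial cells. The 5 genes nearest to Upk3b in their 2 log2 values were Col6a1, Col6a2, Bnc1, Mgp and Pdpn, at distances between 0.43 and 0.94. This likeness rests on 2 arrays and on the brightness of different probe sets.

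Genes of other cell types were also measured on the mesothelial array. Hepatoblast genes summed to 68368.9 in mesothelial cells, against 44960.0 in liver cells. Among them the albumin gene Alb read 15683.0 in mesothelial cells, against 12831.8 in liver cells, the smallest difference of the 8. Hnf4a, a hepatocyte transcription factor gene, Dlk1, Epcam and Foxa3 were 3.04-fold, 2.55-fold, 2.53-fold and 2.46-fold higher in mesothelial cells. These 4 of 8 compare with 45.4% of all genes, and 0 of the 8 passed 2-fold after median centring. Of 7 striated muscle genes above the floor, 6 were brighter by 2-fold or more in mesothelial cells, against 45.4% of all genes, and 3 after median centring, against 23.9%. The 8 measured summed to 3044.6 in mesothelial cells, against 984.7 in liver cells. The 6 macrophage genes summed to 4536.5 in mesothelial cells, against 1433.8 in liver cells. Of these 6, 4 were brighter by 2-fold or more in mesothelial cells, against 45.4% of all genes, and 2 after median centring, against 23.9%. Erythroid genes were on the other side, summing to 8175.4 in mesothelial cells, against 28735.3 in liver cells, with 5 of 6 brighter by 2-fold or more in liver cells, against 3.83% of all genes. The part of such transcripts in the marker readings was not tested.

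**Figure D4:**
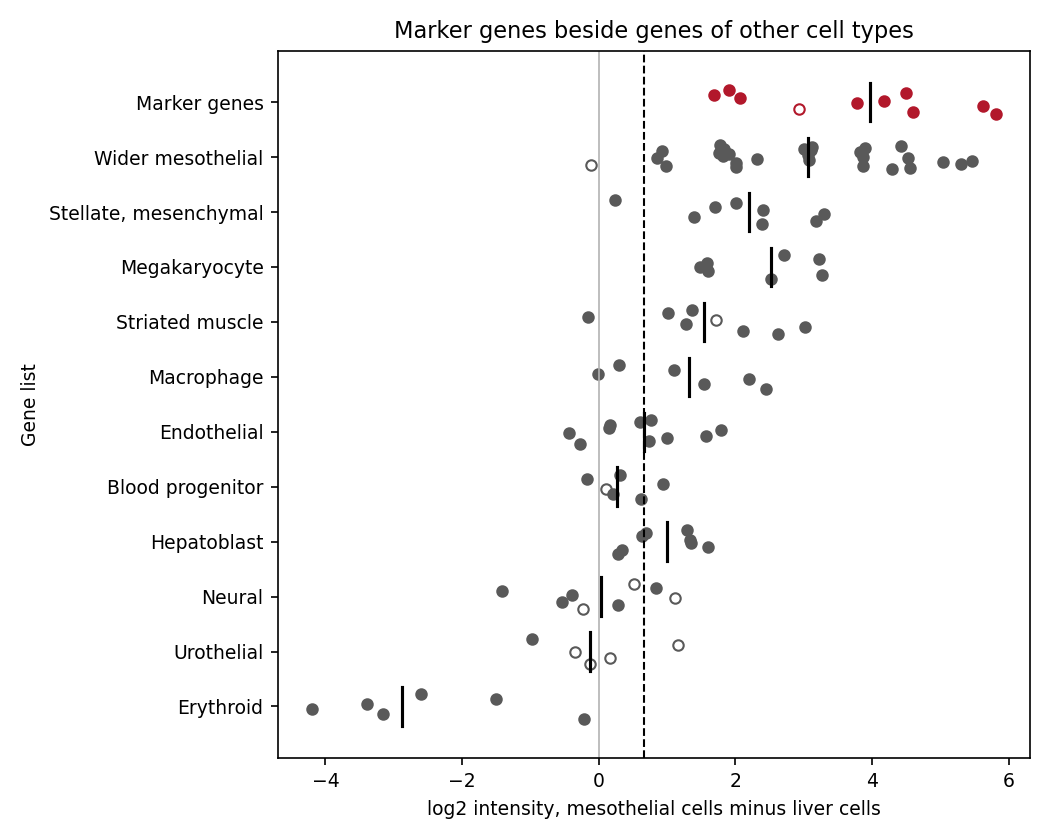
Difference for each gene of the marker list, of the wider mesothelial list and of lists for other cell types, as log2 intensity in mesothelial cells minus liver cells, with symbols as in the plot of relatives. The marker list has a median of 3.98, the megakaryocyte list 2.52, the neural list 0.03 and the erythroid list -2.87.

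Start site sequences were taken from a table of RefSeq promoters on GRCm38.p6, which does not cover every gene. It held 7 start sites for 6 of the genes, Upk3b, Muc16, Lrrn4, Gpm6a, Alcam and Efemp1, and those of Upk1b, Msln, Podxl and Nkain4 were not analysed here. A window ran over 300 bases, 250 before the start site and 50 after it, and was searched on both strands. The letters GGAATG, the core bound by TEAD factors, stood in 3 of the 7 windows, 1 each of Upk3b, Lrrn4 and Gpm6a, and in 14.7% of all 32851 windows. The GC box letters GGGCGG stood in 3 windows, of Alcam, Efemp1 and Gpm6a, against 35.7% of all. The same 3 genes held GNGGGCG, the core shared by WT1 and EGR factors, against 31.3% of all, and 3 of its 4 matches overlapped a GC box. TATAAA stood in 1 window, the other of Gpm6a, against 13.6% of all, and AGATAA, bound by GATA factors, in 0 windows, against 11.2%. A match describes these letters and is not a binding site, and with 7 windows the shares allow no comparison.

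The bases before the start site are given for Upk3b, Lrrn4 and Gpm6a, the markers whose windows hold GGAATG, and for Muc16, the mucin that was at least 32.0-fold higher and whose window does not hold it. They run from 5′ to 3′ on the gene's strand, with capitals on GGAATG or its complement. They lie at chr5:136038246-136038495 on the plus strand, chr2:132880863-132881112 on the minus strand, chr8:54779184-54779433 on the plus strand and chr9:18674604-18674853 on the minus strand. The match begins at base 10 of the Upk3b run, base 55 of the Lrrn4 run and base 126 of the Gpm6a run.
Upk3b: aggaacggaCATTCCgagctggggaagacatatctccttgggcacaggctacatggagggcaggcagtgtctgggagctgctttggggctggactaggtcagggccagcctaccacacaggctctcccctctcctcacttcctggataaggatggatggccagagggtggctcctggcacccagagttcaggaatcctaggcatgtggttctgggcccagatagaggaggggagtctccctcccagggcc
Lrrn4: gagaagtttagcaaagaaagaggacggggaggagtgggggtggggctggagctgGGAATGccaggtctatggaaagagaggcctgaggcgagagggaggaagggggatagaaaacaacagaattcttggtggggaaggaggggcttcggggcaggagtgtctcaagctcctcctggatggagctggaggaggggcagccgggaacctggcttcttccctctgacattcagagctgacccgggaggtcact
Gpm6a: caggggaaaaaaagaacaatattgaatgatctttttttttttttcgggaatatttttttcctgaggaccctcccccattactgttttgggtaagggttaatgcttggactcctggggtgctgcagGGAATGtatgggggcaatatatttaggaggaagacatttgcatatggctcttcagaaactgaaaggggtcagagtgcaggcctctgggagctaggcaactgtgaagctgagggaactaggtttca
Muc16: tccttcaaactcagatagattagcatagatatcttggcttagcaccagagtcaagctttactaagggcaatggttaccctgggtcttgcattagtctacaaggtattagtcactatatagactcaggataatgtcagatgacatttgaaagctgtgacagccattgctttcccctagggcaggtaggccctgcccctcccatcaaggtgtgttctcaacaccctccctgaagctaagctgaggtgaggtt

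The dinucleotide CG occurred 2 times in the Upk3b window, 1 time in that of Muc16 and 25 times in that of Alcam, with a median of 7 over all windows.

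The direction of the differences was then followed under other scalings of the arrays. Upk3b, Upk1b, Muc16, Lrrn4, Gpm6a and Efemp1 were brighter by 2-fold or more in mesothelial cells on every probe set under each of the 5 scalings, and so was Msln. Alcam, at 2.07 as deposited, was 1.11 after centring on reference genes and 0.99 after centring on hybridisation controls. Podxl, at 1.69 as deposited, was 0.73 when the arrays were centred on reference genes, and Nkain4, at 1.91 as deposited, was 0.96, so both then lay under 2-fold. With hybridisation controls Podxl was 0.61 and Nkain4 0.83, so that Alcam, Podxl and Nkain4 all lay under 2-fold on their brightest probe sets. The low Podxl probe set was the single one to turn sign, at -0.12 after median centring, -0.43 after centring on reference genes and -0.55 after centring on hybridisation controls.

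**Figure D5:**
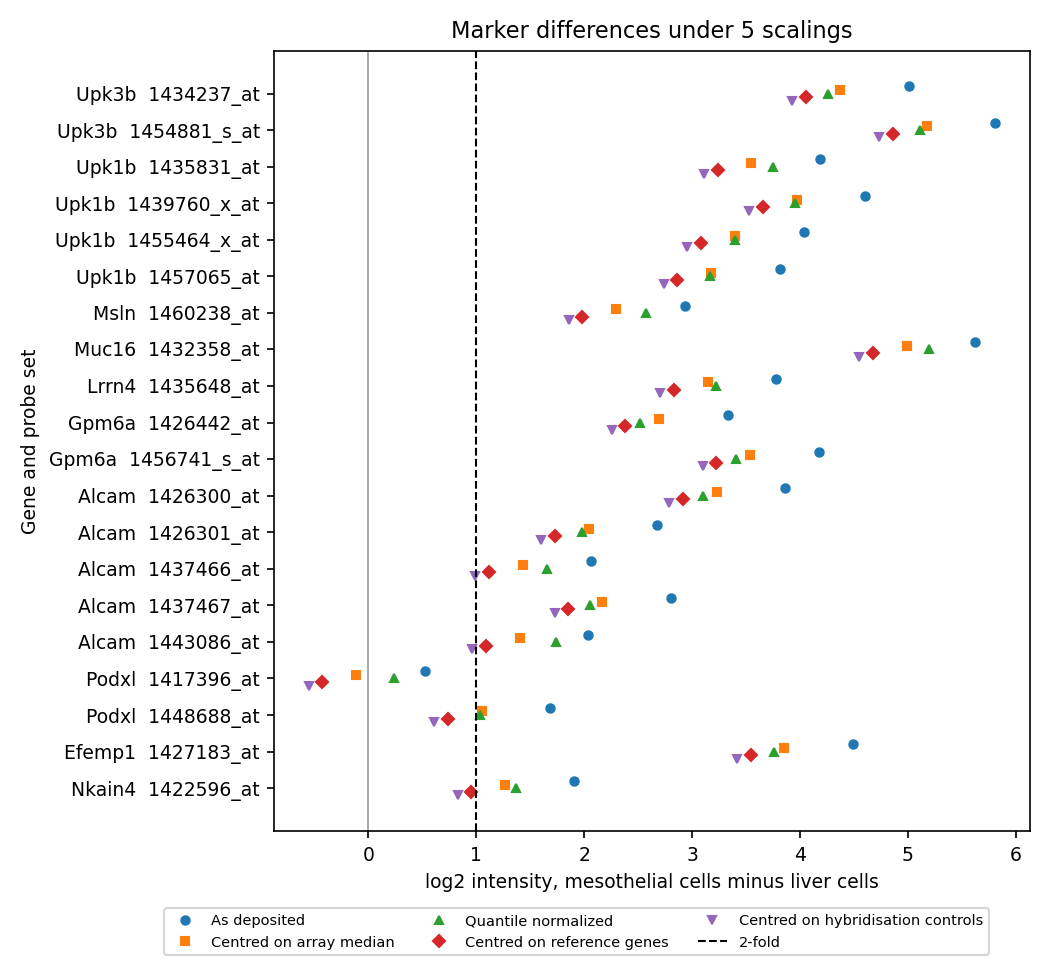
Difference for each marker probe set under 5 scalings of the arrays, as log2 intensity in mesothelial cells minus liver cells, with a dashed line at 2-fold. Points of a row keep to the right of 0 except for the low Podxl probe set, which is at 0.52 as deposited and at -0.12 after median centring.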

How the data were processed

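The deposited table gives 1 intensity per probe set and array. The values run far beyond any log2 scale, so they were read as linear, and log2 was taken here. RMA and Partek are named without version or role, per the submitters' processing notes. How the authors scaled the arrays was not stated in any label. The quantiles of the arrays differ, and the main values are as deposited. The file has no detection calls, and the number of arrays limits the precision. Of the probe sets, 34945 had 1 gene symbol in the platform annotation, 932 had several, 9160 had none and 64 were controls. Each gene was represented by its brightest probe set (mean of both log2 values). Where the dimmer value was at control level, the ratio was taken to that level and is a lower bound.

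The genes, lists and thresholds were chosen with earlier results of these data known. Every marker probe set is described, and from other lists the genes at least 2-fold apart, the extremes or those a result turns on. The counting steps were tested on simulated data. Alternatives were median centring, quantile normalization, centring on 11 reference genes, low values at control level, the median over probe sets, no _x_at or _s_at probe sets, other floors, a 4-fold threshold and, added after the data were seen, centring on 18 hybridisation controls. Protein sequences were not used here. Python 3.11.15, numpy 2.4.6 and pandas 2.3.3 were used.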

Additional observations from a re-analysis of the deposited data

How the results depend on the processing

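Each group had 1 array, so no alternative changes a test, and the yardstick is the SD of 0.70 between probe sets of a gene, which holds no variation between embryos, sorts or amplifications. No paired analysis was possible because each group had 1 array. The median over the marker probe sets, 3.80 as deposited, was 2.85 after centring on reference genes and 2.72 after centring on hybridisation controls, and the median over the marker genes, 3.98, was 3.03 after centring on reference genes and 2.90 after centring on hybridisation controls. The count of marker probe sets above the floor and at least 2-fold higher in mesothelial cells was 17 as deposited. With hybridisation controls it was 14, beside a share of 12.6% among all the probe sets that passed the floor. Without _x_at and _s_at probe sets it was 13 of the 16 left, a drop that is only the removal of 4 counted ones. The count of genes, 9, was 6 with hybridisation controls. Of the related genes, 9 passed with a floor at the 75th percentile, against 16. The share of all genes was not computed at these 2 settings, so neither fall is read as a result about the genes. No marker gene changed sign in 70 recomputed differences, the lowest being 0.61, and 26 of them moved by more than 0.70. Signal over background limits Msln, Muc16 and the low probe sets of Upk1b, Alcam and Podxl.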

Other observations

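The nearest measured genes on either side of each marker, by RefSeq order, were looked at after the marker values were known. Of 20 such neighbours, 12 passed the floor. Of those, 8 were brighter by 2-fold or more in mesothelial cells, which is 66.7% beside the 45.4% of all genes above the floor. The differences of these 8 ran between 1.01 and 2.56. B4galt4 passed the floor on the mesothelial array alone and Wdr17 on the liver array alone. The count was not made after median centring, so no excess is read from it. The median over all 20 was 0.68, against 0.66 over all genes. Upk3bl, the Upk3b-like gene next to Upk3b, read 17.1 in mesothelial cells, against 14.2 in liver cells, under the floor, while Dtx2 on the other side read 507.8 in mesothelial cells, against 167.6 in liver cells. Beside Upk1b, B4galt4, a galactosyltransferase gene, read 158.7 in mesothelial cells, against 27.5 in liver cells. Arfgap1 beside Nkain4 read 884.8 in mesothelial cells, against 150.3 in liver cells, a difference of 2.56, larger than the 1.91 of Nkain4. Wdr17 beside Gpm6a read 21.5 in mesothelial cells, against 57.9 in liver cells.

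Synpo, a podocyte actin-binding gene, was 7.15-fold higher in mesothelial cells, 410.3 against 57.4 in liver cells, while the podocyte slit gene Nphs1 read 19.5 in mesothelial cells, against 17.6 in liver cells.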
